A study of Danio rerio with 4 samples.

Results

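The platelet-derived growth factor (PDGF) ligand and receptor genes were described by RNA sequencing of cells sorted for EGFP from brains of adult zebrafish, in 4 libraries. Members were the Ensembl gene IDs whose symbol, case ignored, starts with pdgf followed by a, b, c, d or r, which gave 8 of the 32105 IDs in the count table. They are 5 ligand IDs (PDGFA, pdgfba, pdgfbb, PDGFC and PDGFD), 2 receptor IDs (PDGFRA and PDGFRB) and the receptor-like gene PDGFRL. The name table gives the symbol PDGFA to 3 IDs, of which 1 is in the count table, and no file says whether that ID is the copy pdgfaa or pdgfab. All 4 samples form a single group of wildtype adults that carry an EGFP transgene under pdgfr beta regulatory sequence, with no treatment and no control group. Brains were dissociated with Liberase, and each library pooled cells from 6 brains and was made from amplified RNA. Titles and source names call the samples pericytes, while their cell type tag reads muLEC (mural lymphatic endothelial cells). Nothing beyond the pools of brains is said of how the samples are separate, so p-values measure the spread between these 4 samples, which may be technical.

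PDGFs are secreted dimers that bind a pair of receptor tyrosine kinases. In mammals PDGFRα binds the A, B and C chains and PDGFRβ binds the B and D chains, and the C and D chains are secreted with a CUB domain that must be cut off before they can bind. In growing brain vessels PDGF-B from endothelium acts on PDGFRβ of pericytes, the mural cells of capillaries, whereas PDGFRα is known in mammals as a marker of oligodendrocyte precursors and of fibroblasts.

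The names B1 to B4 are those of the count table columns, which match no sample number. Their total counts lay between 33270774 and 40441253, so that 1 CPM (a unit of counts scaled for library depth) was between 34.1 and 39.96 counts and 3 counts were between 0.0751 and 0.0879 CPM. B1 stood apart. Over the 18129 IDs with enough counts, the chi-square per degree of freedom between B1 and another library was 819 to 947, against 136 to 200 for pairs among B2, B3 and B4, so no 2 libraries agreed within counting noise. Means of members and spans of ratios that B1 moves are therefore given with and without it. The mean of a member without B1 has the library scaling estimated again from the other 3 libraries. For genes that are not members, a mean without 1 library keeps the scaling estimated from all libraries. Other values are given by library, with B1 set against the others. Levels are CPM without correction for transcript length, so no level of one gene is tested against that of another, and a rank or a median of a list is one of CPM only. In bulk samples fewer cells of a type and less RNA per cell cannot be told apart.

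PDGFRB (ENSDARG00000100897), the receptor gene whose regulatory sequence marked the cells for sorting, had 219 CPM in B1, 76.0 CPM in B2, 121 CPM in B3 and 46.0 CPM in B4. B1 was highest and B4 lowest, 4.75-fold apart, although every library was sorted on the same marker. The mean was 115 ± 75.5 CPM (SD, n = 4 here and below), and 80.3 CPM without B1. By edgeR's quasi-likelihood test its level was 6.85 ± 0.38 (SE) log2 units above 1 CPM (Benjamini-Hochberg adjusted p = 4.62e-09).

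PDGFRA (ENSDARG00000070494), the other receptor gene, had 29.3 CPM in B1, 84.6 CPM in B2, 34.8 CPM in B3 and 64.1 CPM in B4. It was highest in B2 and lowest in B1, where PDGFRB was highest. The mean was 53.2 ± 25.9 CPM, and 60.6 CPM without B1, and the edgeR level was 5.73 ± 0.31 log2 units above 1 CPM (adjusted p = 1.32e-08).

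PDGFRL (ENSDARG00000006456) encodes a protein that resembles the extracellular part of the receptors and lacks the kinase domain, as known from the human gene. It had 13.2 CPM in B1, 114 CPM in B2, 59.1 CPM in B3 and 121 CPM in B4. B1 lay far under the other libraries, and its 9.21-fold span from the lowest to the highest library was wider than that of any other of the 8 genes. The mean was 77.0 ± 50.8 CPM, and 97.4 CPM without B1. Among B2, B3 and B4 alone the span was 2.05-fold.

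The ligand gene copies pdgfba and pdgfbb both encode PDGF-B. For pdgfba (ENSDARG00000086778) the values were 38.9 CPM in B1, 4.82 CPM in B2, 5.47 CPM in B3 and 5.03 CPM in B4. B1 stood alone, and the other 3 libraries lay within 1.14-fold of each other. The mean of 13.5 ± 16.9 CPM was set by B1 and was 5.07 CPM without it, and the edgeR level above 1 CPM was 3.76 ± 0.58 log2 units with B1 (adjusted p = 3.92e-05), against 2.34 ± 0.19 without it (adjusted p = 1.01e-05).

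For pdgfbb (ENSDARG00000038139) the values were 46.9 CPM in B1, 20.7 CPM in B2, 13.6 CPM in B3 and 13.6 CPM in B4. B1 was again highest, but by less than for the other copy. The mean was 23.7 ± 15.8 CPM, and 15.9 CPM without B1. Set against the mean of B2, B3 and B4, the level in B1 was 7.60-fold for pdgfba, 2.93-fold for pdgfbb and 2.70-fold for PDGFRB.

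PDGFA (ENSDARG00000098578), a ligand gene of PDGFRα in mammals, had 58.8 CPM in B1, 65.2 CPM in B2, 36.3 CPM in B3 and 37.5 CPM in B4. B1 and B2 were above B3 and B4, within a 1.80-fold span. The mean was 49.5 ± 14.7 CPM. PDGFC (ENSDARG00000077588) varied as little, with 14.9 CPM in B1, 9.02 CPM in B2, 10.1 CPM in B3 and 15.3 CPM in B4, and a mean of 12.3 ± 3.23 CPM. Unlike the PDGF-B copies, PDGFA and PDGFC did not set B1 apart from all other libraries.

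PDGFD (ENSDARG00000077677), a ligand gene of PDGFRβ in mammals, had 1.05 CPM in B1, 3.55 CPM in B2, 2.23 CPM in B3 and 4.18 CPM in B4. These rested on 36, 131, 80 and 167 counts. It was the only member with a library close to 1 CPM, and B1 was lowest. The mean was 2.75 ± 1.39 CPM, and 3.29 CPM without B1, and its edgeR level was 1.46 ± 0.38 log2 units above 1 CPM (adjusted p = 0.00473). Its adjusted p ran from 0.000492 to 0.0397 when single libraries were left out.

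**Figure D1:**
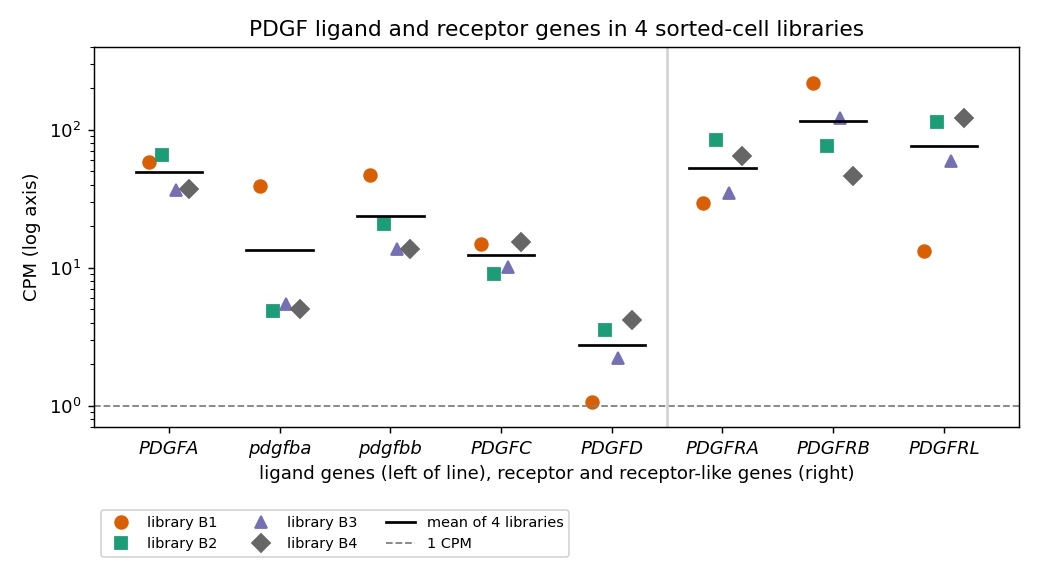
CPM (log axis) of the 5 ligand genes and the 3 receptor and receptor-like genes, 1 point per library, with the mean of 4 libraries as a black line and 1 CPM dashed. B1 lies above the other libraries for pdgfba, pdgfbb and PDGFRB and below them for PDGFD, PDGFRA and PDGFRL.

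All 8 members passed the minimum of 10 counts in total, and all 8 lay above 1 CPM by the edgeR test at an adjusted p under 0.05. Their adjusted p ran from 4.62e-09 for PDGFRB to 0.00473 for PDGFD. The number below 1 CPM was 0 with edgeR, DESeq2 and limma-voom alike, and also 0 before adjustment of the edgeR p. Of the 23635 IDs tested, 65.2% lay above 1 CPM and 10.2% below, so being called above it was common in this table. In every library 5 of the 8 exceeded 10 CPM, and pdgfba, PDGFC and PDGFD did not. Of the 32105 IDs in the count table, 23635 of them tested, 7148 exceeded 10 CPM in every library.

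The deposited YuGene values, a score from 0 to 1 that the authors set within each library, gave the same order of the 4 libraries as CPM for 6 of the 8 members. For PDGFRB the scores were 0.914 in B1, against 0.787 in B2, 0.871 in B3 and 0.693 in B4. For pdgfba they were 0.620 in B1 and 0.154, 0.172 and 0.157 in B2, B3 and B4. The exceptions were pdgfbb and PDGFC, in which neighbouring libraries changed places, B3 with B4 in pdgfbb (0.364 and 0.358) and B1 with B4 in PDGFC (0.387 in both).

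The members spread between libraries in unequal degree. The edgeR biological coefficient of variation, the spread between libraries beyond counting noise, was 0.416 for PDGFC and 0.424 for PDGFA, under the median of 0.488 over the 17212 tested IDs of at least 1 CPM on average. It was 0.497 for PDGFRA, 0.543 for pdgfbb, 0.572 for PDGFRB and 0.593 for PDGFD. PDGFRL at 0.681 and pdgfba at 0.795 exceeded 87.9% and 93.7% of those IDs. The median ID differed 2.51-fold between its lowest and highest library, with quartiles of 1.79 and 3.91.

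Of the 8 members, 3 were highest in B1 and 3 were lowest there, against 36.6% and 43.3% of the 17212 IDs. B1 was at least 2 times the next highest library in 2 members (pdgfba and pdgfbb) and at most 0.5 times the next lowest in 2 (PDGFD and PDGFRL). Over the 17212 IDs the shares were 16.1% and 15.6%. The members' counts are near these shares, so they are not a result about PDGF genes.

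**Figure D2:**
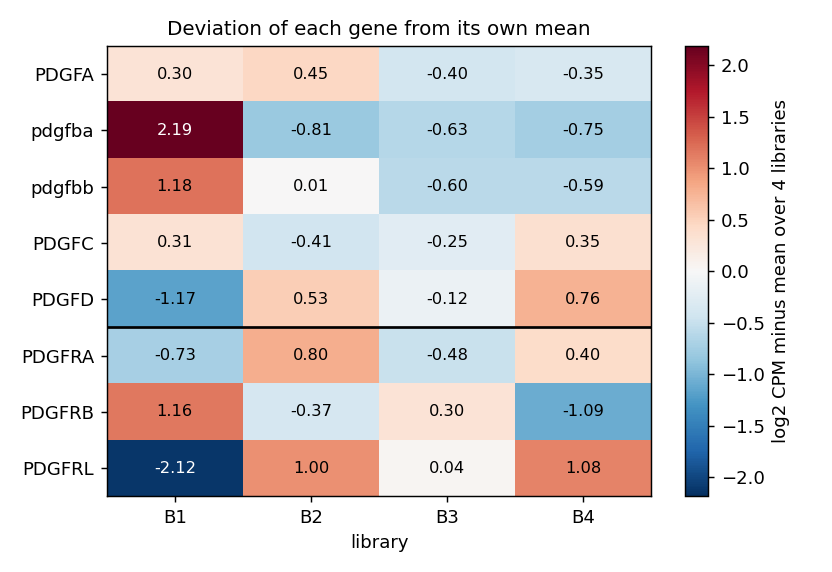
Log2 CPM of each gene minus its own mean over the 4 libraries, with ligands above the line and receptor genes below it. B1 is at 2.19 for pdgfba, 1.18 for pdgfbb and 1.16 for PDGFRB, against -0.73 for PDGFRA, -1.17 for PDGFD and -2.12 for PDGFRL.

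Ratios of 2 members within a library were compared between libraries, where transcript length cancels. The count of PDGFRB over that of PDGFRA was 7.48 in B1, against 0.898 in B2, 3.48 in B3 and 0.718 in B4. B1 and B3 thus held more PDGFRB than PDGFRA counts, while B2 and B4 held fewer, and the span was 10.4-fold with B1 and 4.84-fold without it. The mean log2 ratio was 1.02 ± 1.61, smaller than its own spread, and 0.39 without B1.

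PDGFRL moved against PDGFRB and pdgfba more than any other pairs of members, by 5.45 and 6.13 log2 units across the 4 libraries. The count of PDGFRL over that of PDGFRB was 0.0601 in B1, against 1.505 in B2, 0.489 in B3 and 2.63 in B4. That is a 43.8-fold span, and 5.39-fold without B1. Against PDGFRA the PDGFRL count was 0.449 in B1, against 1.35 in B2, 1.70 in B3 and 1.89 in B4. Without B1 that ratio stayed within 1.40-fold.

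The count of pdgfba over that of its copy pdgfbb was 0.828 in B1, against 0.233 in B2, 0.402 in B3 and 0.369 in B4. The share of the PDGF-B counts from pdgfba was thus highest in B1, and the ratio spanned 3.56-fold with B1 and 1.73-fold without it. The count of pdgfbb over that of PDGFRB was 0.214 in B1, against 0.273 in B2, 0.113 in B3 and 0.296 in B4. That is a 2.63-fold span with B3 lowest, the same with and without B1. The count of PDGFD over that of PDGFRB spanned 18.8-fold, and 4.91-fold without B1. Of the 28 pairs of members, 18 had a ratio that spanned over 2 log2 units across the 4 libraries, and 3 did so without B1. No such share was taken over pairs of other IDs, so these counts are not a result about PDGF genes.

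**Figure D3:**
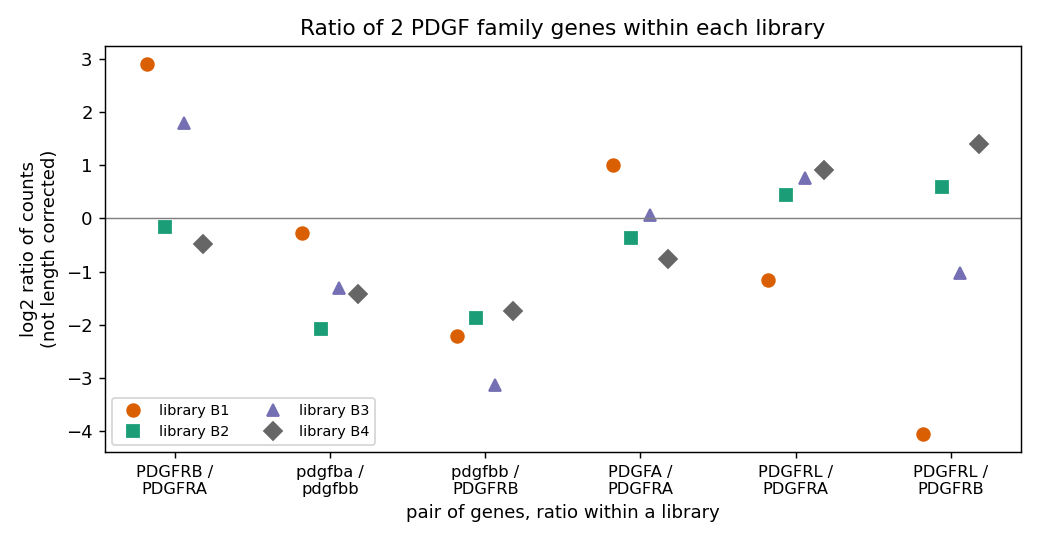
Log2 ratio of counts of 2 members within each library, not length corrected, 1 point per library. The ratio of PDGFRB to PDGFRA runs from -0.48 in B4 to 2.90 in B1, and that of PDGFRL to PDGFRB from -4.05 in B1 to 1.40 in B4.

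For each receptor gene the genes nearest in library profile were named, by the root mean square difference of centred log2 CPM over the 4 libraries, among 9402 IDs with a symbol and at least 10 CPM on average. Nearest to PDGFRB were MID2, a ubiquitin ligase gene, at 0.11, cacnb2a, a calcium channel beta subunit gene, at 0.13, and LRRC75A at 0.16. LATS2, a Hippo pathway kinase gene, followed at 0.17, as did si:dkey-183i3.9 at 0.17. For MID2 the values were 52.0 CPM in B1, 19.0 CPM in B2, 24.5 CPM in B3 and 10.3 CPM in B4, the same library order as PDGFRB. Only 7 of the 9402 IDs lay within 0.2 of PDGFRB, against 33 for PDGFRA.

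Nearest to PDGFRA were BACE2, an aspartyl protease gene, at 0.09 and trabd2b, a metalloprotease gene, at 0.10. The clathrin adaptor gene AP1M1 and the collectin scavenger receptor gene COLEC12 both lay at 0.12, as did LPAR1, a lysophosphatidic acid receptor gene. COLEC12 had 93.5 CPM in B1, 333 CPM in B2, 133 CPM in B3 and 222 CPM in B4, which follows the order of PDGFRA in B2, B4, B3 and B1. Among the members PDGFD came nearest to PDGFRA, at 0.36, and pdgfbb nearest to PDGFRB, at 0.55. The 2 receptors lay 1.39 apart, and 87.2% of the IDs were nearer to PDGFRB than PDGFRA was. With 4 libraries such likeness is a description of these profiles.

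Marker genes of the cell types that a sort of brain cells could hold were set beside the members, by their summed CPM. Counts of marker IDs above 1 CPM by the edgeR test stand beside the 65.2% of all tested IDs, and counts of IDs highest or lowest in B1 beside 36.6% and 43.3%. Of the 13 tested pericyte IDs 12 lay above 1 CPM, and in the lists of 4 other cell types every tested ID did (neuron, fibroblast, oligodendrocyte, and lymphatic and muLEC), so the counts do not set the named cell type apart. A copy of the peptidase gene ANPEP (ENSDARG00000097285) lay below at 0.0929 CPM, and at 0.0488 CPM without B4. That call was lost without B2 or B3 (edgeR adjusted p = 0.0803 and 0.0704) and with DESeq2 size factors or total counts (0.0518 and 0.0501). Without B1 or B4 this ID held fewer than 10 counts and was not tested. The sum of the pericyte list was 1983 CPM in B1, 1491 CPM in B2, 1011 CPM in B3 and 873 CPM in B4, lowest in B4 as PDGFRB was. The smooth muscle, fibroblast, oligodendrocyte, endothelial, and lymphatic and muLEC sums were also lowest in B4. A low in B4 thus does not set the pericyte list apart. Leaving out the leading ID, KCNE4, moved the peak of the pericyte sum from B1 to B2. Without that ID the sums were 1029 CPM in B1, 1384 CPM in B2, 895 CPM in B3 and 774 CPM in B4, so that B2 was highest. Of the 15 IDs 6 were highest in B1 and 7 lowest, near the shares over all IDs. KCNE4, a potassium channel subunit gene, had 955 CPM in B1 against 98.9 to 116 CPM elsewhere, whereas rgs5b, a G protein signalling regulator gene, had 26.8 CPM in B1 against 178 to 679.6 CPM. The B2 sum without KCNE4 held the 679.6 CPM of rgs5b, so the highest library of this list depended on single IDs. NOTCH3 and ZIC1 were also highest in B1, at 352 and 473 CPM, against 91.4 to 124 CPM and 159 to 227 CPM elsewhere.

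The sums of endothelial, neuronal, lymphatic and oligodendrocyte precursor markers were highest in B1, also without the leading gene of each, as were pdgfba, pdgfbb and PDGFRB. Endothelial markers, of the cells that make PDGF-B in growing vessels, summed to 339 CPM in B1 against 61.9 to 104 CPM in the others. Of their IDs 10 of 13 lay above 1 CPM, not far above the 65.2% over all tested IDs. Only 3 of 13 were highest in B1, a smaller share than the 36.6% over all IDs. Most of the sum in B1 was the tight junction gene CLDN5 (ENSDARG00000043716) at 240 CPM, and without that ID the sums were 99.3 CPM in B1, 89.1 CPM in B2, 60.1 CPM in B3 and 41.7 CPM in B4. The marker kdrl had 49.8 CPM in B1 against 7.16 to 20.6 CPM elsewhere. Without CLDN5 the lead of B1 over B2 in the endothelial sum was smaller than its lead in kdrl alone. The endothelial cadherin gene cdh5 was 2.14 CPM in B1 and 6.47 CPM in B2. Neuron markers summed to 601 CPM in B1 against 144 to 244 CPM, with 5 of 5 IDs highest in B1, and without the RNA-binding protein gene ELAVL3 to 257 CPM in B1 against 106 to 140.3 CPM. The part of these cell types in the levels of the PDGF-B copies was not tested.

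Thrombocytes, the fish counterpart of the platelets that gave PDGF its name, left few counts. Their 5 marker IDs summed to 6.91 CPM in B1 and 1.03 to 4.16 CPM in the others, 1 of 4 tested lay above 1 CPM and the integrin gene itga2b lay below it at 0.217 ± 0.111 CPM. The ID above was FERMT3 (ENSDARG00000030938), whose call was lost without B1, B3 or B4 (log2 0.58, 1.09 and 1.15) and by limma-voom (0.79). The call of itga2b was lost without B2, B3 or B4 (log2 -1.85, -2.30 and -2.40).

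PDGFRA was set beside the markers of the cells known to carry it in mammals. Fibroblast markers summed to 5389 CPM in B3 and to 933 to 1824 CPM in the others, whereas PDGFRA in B3 was 34.8 CPM and higher in B2 and B4. The sum in B3 was mostly that of 3 type I collagen IDs, and the proteoglycan gene DCN had 362 CPM in B1, 992 CPM in B2, 1103 CPM in B3 and 525 CPM in B4. All 7 fibroblast IDs lay above 1 CPM by edgeR, and by limma-voom LUM did not pass (log2 2.54, adjusted p = 0.0588). Oligodendrocyte precursor markers summed to 1052 CPM in B1 and 583 to 674 CPM in the others, and 4 of 6 IDs lay above 1 CPM. Both IDs of the receptor phosphatase gene PTPRZ1 held 83.6% of that sum in B1 and 95.2% to 97.5% in the others, and without them it was 172 CPM in B1 against 15.6 to 27.7 CPM. The transcription factor gene OLIG2 had 104 CPM in B1 against 10.7 to 14.7 CPM, and SOX10 had 61.9 CPM in B1 against 2.98 to 9.53 CPM, in the library where PDGFRA was lowest. The transcription factor gene olig1 was highest in B2, at 2.22 CPM, against 1.14 CPM in B1. Neither list therefore had the library order of PDGFRA.

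By the sums of whole lists, only radial glia markers were lowest in B1 as PDGFRA, PDGFRL and PDGFD were. They summed to 20492 CPM in B1 against 38250 to 43691 CPM, with 8 of 9 IDs above 1 CPM and 8 lowest in B1. Without its leading gene apoeb the microglia sum was also lowest in B1, at 60.0 CPM against 149 to 306 CPM. Of the 4 microglia IDs 1 was lowest in B1. It was cd74a, at 55.1 CPM in B1 against 149 to 304 CPM, which made up most of the sum without apoeb. In the same list csf1ra was highest in B1, at 4.48 CPM against 0.515 to 1.17 CPM. The part of either cell type in the levels of PDGFRA, PDGFRL and PDGFD was not tested. Of the remaining lists, smooth muscle summed to between 214 and 403 CPM, oligodendrocyte to between 1260 and 3855 CPM, lymphatic and muLEC to between 103 and 255 CPM and microglia to between 1092 and 2926 CPM. In these 4 lists 5 of 8, 4 of 4, 6 of 6 and 2 of 4 tested IDs lay above 1 CPM, in smooth muscle and microglia no larger a share than over all IDs. No marker ID was at 0 in all 4 libraries.

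**Figure D4:**
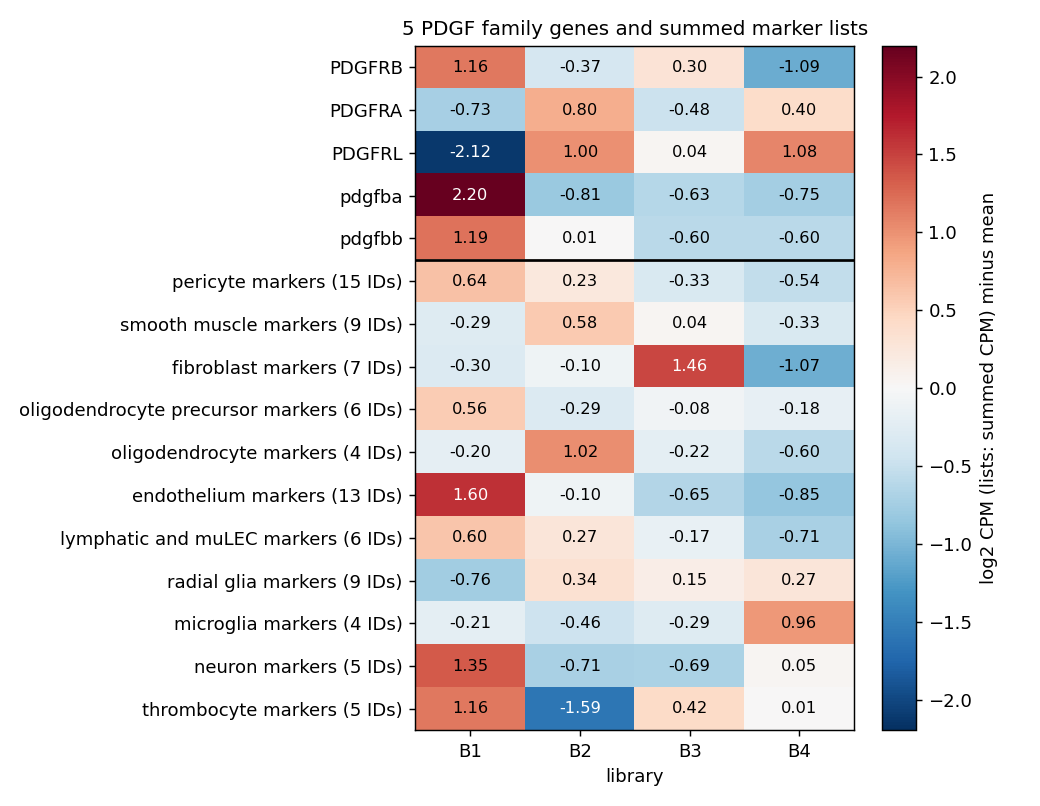
Log2 CPM of 5 members (above the line) and log2 summed CPM of each marker list (below it), minus the mean over the 4 libraries. B1 is at 1.16 for PDGFRB, 0.64 for pericyte markers (a sum highest in B2 without KCNE4), 1.60 for endothelial markers and 1.35 for neuron markers, against -0.76 for radial glia markers and -2.12 for PDGFRL. The pericyte sum in B2 holds 679.6 CPM of rgs5b. Without CLDN5 (ENSDARG00000043716) the endothelial sums are 99.3 CPM in B1, 89.1 CPM in B2, 60.1 CPM in B3 and 41.7 CPM in B4. Of these kdrl is 49.8 CPM in B1 and 20.6 CPM in B2.

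The other genes through which PDGFs act were read from 5 lists with 84 entries, of which 81 were matched, giving 82 IDs. Of the 80 tested, 71 lay above 1 CPM by the edgeR test (65.2% over all IDs), 9 on neither side and 0 below. Before adjustment of the edgeR p the number below was 0 as well, while DESeq2 placed 3 IDs there (pcsk5a, KIT and kitb) and limma-voom 4 (these and map2k2b). Of all 23635 IDs edgeR placed 2402 below 1 CPM, DESeq2 3783 and limma-voom 4643. Of genes simulated at 0.5 CPM the edgeR test called 4 of 50 below 1 CPM, and at 0.25 CPM 37 of 50. An ID on neither side may thus lie below 1 CPM. Without B1 71 of 79 pathway IDs lay above 1 CPM, and over the 4 libraries left out in turn 69 to 71 did. The median over all 23635 tested IDs was 6.05 CPM.

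Genes that hold, cut or co-receive PDGF had a median of 21.2 CPM, with 12 of 15 tested IDs above 1 CPM and 3 on neither side. SPARC, a matrix protein known in mammals to bind PDGF-B, had 113 CPM in B1, 610.4 CPM in B2, 585 CPM in B3 and 379 CPM in B4, lowest in B1. NRP2 (ENSDARG00000038446), a neuropilin co-receptor gene, had 187 CPM in B1, 23.8 CPM in B2, 29.4 CPM in B3 and 85.7 CPM in B4, with a mean of 81.5 CPM and of 46.3 CPM without B1. AGRN, which encodes a heparan sulfate proteoglycan, stood at 57.9 ± 19.3 CPM. The protease genes st14a, at 0.604 ± 0.776 CPM, and pcsk5a, at 0.118 ± 0.146 CPM, passed in neither direction. Without B2 their means were 0.264 and 0.0586 CPM.

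The adaptors and enzymes that bind the phosphorylated receptors had a median of 35.2 CPM, and 34 of 35 IDs lay above 1 CPM. The phosphoinositide 3-kinase regulatory subunit genes pik3r2 and PIK3R1 stood at 154 ± 36.1 CPM and 120 ± 44.7 CPM. The catalytic subunit gene PIK3CA had the lowest CPM of those above 1 CPM, at 1.94 ± 0.199 CPM (log2 0.95 above 1 CPM, edgeR adjusted p = 0.0416), a call lost without B2, B3 or B4 (edgeR adjusted p = 0.0543, 0.125 and 0.0887). The adaptor gene GRB7 did not pass at 0.408 ± 0.302 CPM. The summed level of this list was nearly the same in every library, from 1623 CPM in B4 to 1644 CPM in B2. Single IDs were not as steady, and their shifts in B1 went both ways. Of the 35 IDs 14 were highest in B1 and 15 lowest, near the 36.6% and 43.3% over all IDs.

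In the RAS, MAPK and AKT list 16 of 17 IDs lay above 1 CPM, with a median of 17.3 CPM. MAPK3, which encodes the kinase ERK1, had 203 CPM in B1, 46.3 CPM in B2, 43.5 CPM in B3 and 45.1 CPM in B4. B1 stood alone there, and the mean was 84.4 CPM with it and 45.0 CPM without. HRAS (ENSDARG00000005651) stood at 32.2 ± 11.4 CPM, AKT2 (ENSDARG00000103612) at 31.6 ± 3.33 CPM and akt1 at 3.41 ± 0.846 CPM. The kinase gene map2k2b did not pass at 0.380 ± 0.249 CPM.

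Of the genes that end or limit receptor signals 8 of 8 lay above 1 CPM, with a median of 27.02 CPM. The phosphatase gene ptpn2a stood at 30.9 ± 12.9 CPM, the ubiquitin ligase gene CBLB at 20.3 ± 7.15 CPM and the receptor phosphatase gene ptprja at 2.99 ± 0.903 CPM.

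**Figure D5:**
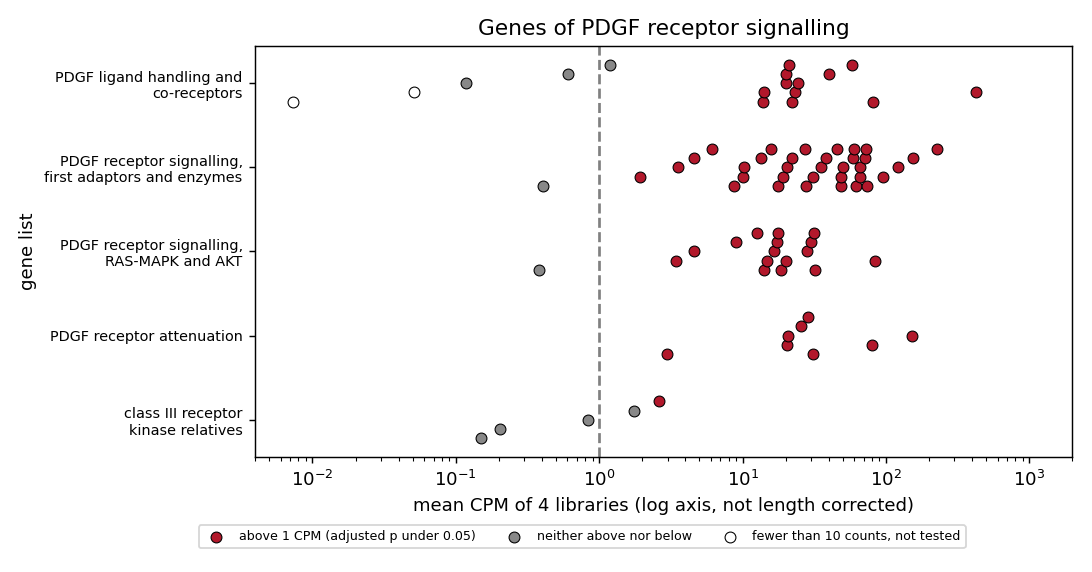
Mean CPM over the 4 libraries (log axis, not length corrected) of each ID of the 5 pathway lists, coloured by the edgeR call against 1 CPM (dashed). Of the 80 tested IDs 71 lie above 1 CPM, whereas 4 of the 5 class III relatives lie on neither side of 1 CPM.

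The class III receptor kinases, the closest relatives of the PDGF receptors, were sparse. Of kita (listed as KIT), kitb, csf1ra, csf1rb and flt3, 1 of 5 lay above 1 CPM, flt3 at 2.61 ± 1.34 CPM (log2 1.38, edgeR adjusted p = 0.0073), and it did not pass without B3 (log2 1.04, edgeR adjusted p = 0.0629). In the RefSeq annotation of the GRCz12tu assembly csf1ra neighbours pdgfrb and kita neighbours pdgfra, which is a later assembly than that of the counts. csf1ra, the receptor gene of microglia and macrophages, had 4.48 CPM in B1, 0.515 CPM in B2, 1.17 CPM in B3 and 0.851 CPM in B4, with a mean of 1.76 CPM and of 0.846 CPM without B1. KIT stood at 0.204 ± 0.236 CPM (0.0920 without B2), csf1rb at 0.840 ± 0.568 CPM and kitb at 0.149 ± 0.188 CPM (0.0625 without B1). The neighbouring receptor genes thus reached at most 4.48 CPM in any library.

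In the same assembly the span of pdgfra overlaps gsx2 and a non-coding locus, that of pdgfc overlaps glrbb and gria2b, and that of pdgfab, which may be the PDGFA ID, overlaps an unnamed protein-coding locus. Whether the counting used strand is not given in the sources used here, so reads of overlapping genes may not be told apart. GSX2 stood at 43.7 ± 8.55 CPM and was highest in B3, at 56.3 CPM, where PDGFRA was 34.8 CPM. The symbol GRIA2, a glutamate receptor gene, belongs to 2 IDs, and no file says which is gria2b. ENSDARG00000052765 had 70.5 CPM in B1, 7.96 CPM in B2, 15.6 CPM in B3 and 9.26 CPM in B4, and ENSDARG00000070173 had 9.05 CPM in B1 against 0.726 to 1.19 CPM. PDGFC did not share their peak in B1, at 14.9 CPM in B1 and 15.3 CPM in B4. The GLRB IDs lay between 0.812 and 5.22 CPM. These genes were looked up after the values of the members were seen.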

How the data were processed

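Cells sorted for EGFP from pools of 6 brains gave 4 libraries of 1 group. Raw counts for each Ensembl gene ID were deposited, together with YuGene scores between 0 and 1 set within each library, per the file headers and values. The submitters' processing notes name bcl2fastq, R 3.2.2 and the build GRCz10; the aligner is not given in the sources used here, nor are the counter and annotation. 0 columns were left out. The reads carry no molecular identifiers and were amplified, so floors cover counting error only.

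Counts were scaled by TMM (factors 0.948 to 1.04) in edgeR 4.0.16, R 4.3.3. A single mean per ID was fitted by quasi-likelihood to the 23635 IDs with at least 10 counts, and tested two-sided against 1 CPM by the F statistic formed from the drop in deviance, with Benjamini-Hochberg adjustment over all of them at 0.05. The method was tested on simulated data, in which genes drawn at random from the tested IDs kept their own spread and were set to a fixed level. It called below 1 CPM 37 of 50 genes set at 0.25 CPM and 4 of 50 set at 0.5 CPM. Above 1 CPM it called 20 of 50 set at 2 CPM and 48 of 50 set at 4 CPM. Of 200 genes set at 1 CPM it called 2 above and 1 below. DESeq2 1.42.0 and limma 3.58.1 were alternatives, with other scaling, no filter, and each library left out. Log2 values have a prior count of 2. Symbols came from a table of Ensembl IDs that named 26269 IDs. Entries without a match were tried without a final a or b, which takes in copies.

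The members and the lists were chosen with earlier results of these data known. Named were all members, the 3 highest and 2 lowest tested IDs of each pathway list, and the 5 IDs nearest to each receptor; marker genes stand where a result needs them. The planned comparison of levels per coding kilobase was not made, as coding lengths were not used here. Some genes of the pathway lists are counted in the lists but not reported here by name.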

Additional observations from a re-analysis of the deposited data

Results flagged for a closer look

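pdgfba was flagged because 1 library stood far from the other 3. Its level was 38.9 CPM in B1 and 4.82, 5.47 and 5.03 CPM in B2, B3 and B4, so the gap from B1 to the nearest library was 0.981 of the whole range, above Dixon's 95% critical value for 4 samples. The test was run on 8 genes and flagged 1, and chance flags about 1 group in 20. The share it would flag over all IDs was not taken. Of the 17212 tested IDs of at least 1 CPM on average, 16.1% had at least 2 times the next highest library in B1. A B1 far above the other libraries is thus not particular to pdgfba. In the same library pdgfbb was 46.9 CPM against 13.6 to 20.7 CPM, MAPK3 203 CPM against 43.5 to 46.3 CPM and the neuron markers 601 CPM against 144 to 244 CPM; their part in the value of pdgfba was not tested.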

How the results depend on the processing

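The 8 members above 1 CPM and the 0 below it were the same number with DESeq2 size factors, with total counts alone, without the filter, by DESeq2, by limma-voom and without any single library (8 to 8 above and 0 to 0 below). The 53 alternative values of the members' means and of the ratio of PDGFRB to PDGFRA moved by less than the SD of the 4 libraries. Leaving out 1 of 4 libraries can hardly move a mean that far, so for those values the comparison could hardly fail. When single libraries were left out, the mean of pdgfba was 5.07 to 16.8 CPM, against 13.5 CPM with all 4. That of PDGFRB was 80.3 to 139 CPM, against 115 CPM. The 71 pathway IDs above 1 CPM were 69 to 71 when single libraries were left out and 71 under every other alternative. The 0 pathway IDs below it became 2 without the filter, 3 by DESeq2 and 4 by limma-voom, alternatives added after seeing the data. Without the filter 82 in place of 80 IDs were tested, and for both other tests the cause was not tested. Over all IDs the number below 1 CPM rose too, from 2402 of 23635 to 7247 of 28308 without the filter. It was 3783 of 23635 by DESeq2 and 4643 of 23635 by limma-voom. The rise is thus not a result about the pathway IDs. Over the 4 libraries left out in turn the pathway count below 1 CPM was 0 to 0. Leaving the leading gene out of each marker sum was also chosen after seeing the data. It moved the highest library of the pericyte sum to B2, of the oligodendrocyte sum to B1 and of the radial glia sum to B4. The lowest library moved to B1 for the microglia sum and to B3 for the neuron sum. For the oligodendrocyte precursor and thrombocyte sums it moved to B4. The comparison of members per coding kilobase and its alternatives were not run. No paired analysis was possible because there is 1 group and the columns carry no replicate number. With 4 libraries, and 36 counts of PDGFD in B1, differences between libraries below counting noise were not detectable.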
